A study of Mus musculus with 6 samples.

Results

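Transcripts of 9 enzymes of red cell energy and nucleotide metabolism were compared between cultured mouse BM erythroid cells given NUP-17d and those given its vehicle. The 9 genes, Hk1, Gpi1, Pfkm, Aldoa, Bpgm, Pklr, Pkm, Ak1 and Nt5c3, were taken by symbol as enzymes that act in red cells or whose loss causes red cell disease. The rule itself uses no measured value, though it was written with earlier results of these data known, and all 9 were listed in every culture, out of 17060 genes listed in at least 1 culture. Lineage-negative cells were purified from the BM of WT mice and grown in EPO-containing medium, in which they divide and mature into erythroblasts. From the start of the culture they received either NUP-17d, a small molecule made to bind the DEP domain of the membrane protein pleckstrin-2 (Plek2), at 10 μM, or DMSO alone (labelled NC), for 48 hours. The groups held 3 cultures each, shared the WT background, the medium and the duration, and differed in the compound. The sources used here do not say how many mice gave the cells, their age, or whether the cultures of a group were started separately, so the p-values measure the spread between these cultures, which may be technical.

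Red cells lose their mitochondria as they mature and then make ATP by glycolysis alone. Hexokinase (Hk1), glucose-6-phosphate isomerase (Gpi1), phosphofructokinase (Pfkm, the muscle type subunit) and aldolase (Aldoa) carry glucose through the upper part of the pathway. Bisphosphoglycerate mutase (Bpgm) diverts an intermediate into 2,3-bisphosphoglycerate, which binds hemoglobin and lowers its affinity for oxygen. Pyruvate kinase makes ATP in the last step, and its R form from Pklr replaces the M2 form from Pkm as erythroid cells mature. Adenylate kinase (Ak1) balances the adenine nucleotides, and pyrimidine 5′-nucleotidase (Nt5c3) clears the pyrimidine nucleotides set free when reticulocytes break down their RNA. Inherited loss of several of these enzymes causes hemolytic anemia.

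The promoters of 4 of the genes are shown, chosen by the changes in level of these genes. Whether the sequences relate to those changes was not tested. Of the 9, Bpgm and Nt5c3 had the largest falls. The pyruvate kinase genes Pklr and Pkm moved in opposite directions after the composition scaling described below. With library totals alone, Pklr was not called (log2 fold change -0.0099, edgeR adjusted p = 0.849). Each sequence is the 250 bases before a RefSeq transcript start (GRCm38.p6, the assembly of the mm10 build named in the submitters' processing notes), read 5′ to 3′ along the gene, and all 9 genes matched the RefSeq table. Capitals mark AGATAA or TGATAA, the letters of sites bound by GATA factors, and CACCC, the letters of sites bound by KLF factors, on either strand. The Bpgm window is chr6:34476106-34476355 (plus strand), directly before the gene. The Nt5c3 window is chr6:56901887-56902136 (minus strand), inside the span of the gene, which extends upstream to 56924008. It precedes the only start listed for Nt5c3, and any start farther upstream is missing from the counts below. The Pklr window is chr3:89135892-89136141 (plus strand), before the upstream of its 2 listed starts, and the Pkm window is chr9:59656326-59656575 (plus strand), before the upstream of its 2 listed starts.
Bpgm: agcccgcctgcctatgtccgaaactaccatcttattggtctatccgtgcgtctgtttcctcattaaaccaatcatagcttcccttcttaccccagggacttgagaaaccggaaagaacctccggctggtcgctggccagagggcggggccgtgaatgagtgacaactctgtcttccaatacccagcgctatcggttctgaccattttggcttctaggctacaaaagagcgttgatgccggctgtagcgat
Nt5c3: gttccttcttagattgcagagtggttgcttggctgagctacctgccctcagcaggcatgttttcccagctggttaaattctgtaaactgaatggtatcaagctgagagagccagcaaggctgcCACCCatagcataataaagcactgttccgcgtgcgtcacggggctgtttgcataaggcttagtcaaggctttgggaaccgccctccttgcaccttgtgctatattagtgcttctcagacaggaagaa
Pklr: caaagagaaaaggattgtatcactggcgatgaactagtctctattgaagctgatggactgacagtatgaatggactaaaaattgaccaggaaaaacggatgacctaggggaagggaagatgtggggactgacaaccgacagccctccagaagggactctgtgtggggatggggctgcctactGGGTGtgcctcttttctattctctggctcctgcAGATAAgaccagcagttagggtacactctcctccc
Pkm: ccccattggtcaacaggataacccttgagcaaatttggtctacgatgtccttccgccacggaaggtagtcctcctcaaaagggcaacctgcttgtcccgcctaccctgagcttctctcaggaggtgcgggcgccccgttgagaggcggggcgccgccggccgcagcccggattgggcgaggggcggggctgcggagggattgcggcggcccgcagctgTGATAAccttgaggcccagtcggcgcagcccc
Counting back from the base before the start as -1, the Pklr window held AGATAA at -35 and CACCC, read on the other strand, at -68. The Pkm window held TGATAA at -32, and the Nt5c3 window held CACCC at -127. None of these letters occurred in the Bpgm window. Over the 20 RefSeq starts of the 9 genes, some of whose windows overlap, AGATAA stood before 4, TGATAA before 3 and CACCC before 12. By gene, AGATAA was found for 2 of the 9 (Pfkm and Pklr), TGATAA for 3 and CACCC for 7. In the 32851 windows of the same length in the RefSeq table, the shares with the motif were 9.99%, 7.94% and 52.0%. These are shares of windows, to be set beside the counts of starts. A gene with several windows has more chances of a match, and no share by gene was computed. ACGTG and GCGTG, the core letters of hypoxia response elements, stood before 6 and 5 of the 20 starts, against 16.6% and 28.2% of all windows. CACGTG, which contains ACGTG, stood before 1 start, of Pfkm, against 6.02% of all windows. A match is a run of letters and not a measured site.

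Expected counts summed to 20278433 to 20419018 in the DMSO cultures and 20076409 to 20170197 in the NUP-17d cultures, and the common biological coefficient of variation between cultures of a group was 2.95%. Hemoglobin genes took up 19.1% ± 1.04 (SD, n = 3) of the reads in the DMSO group and 12.2% ± 0.723 in the NUP-17d group. At equal totals, a smaller hemoglobin share leaves more reads to every other gene, so counts were scaled for composition with the TMM method of edgeR (factors of 0.887 to 0.930 with DMSO and 1.08 to 1.11 with NUP-17d). The median log2 fold change of all 12306 tested genes was 0.014 on the TMM scale and 0.28 with library totals alone. How much of this shift came from the hemoglobin genes, and how much from other genes, was not tested. The label erythroblast was checked with 11 erythroid markers, hemoglobin genes among them. Their summed level was 115989 to 131105 CPM (counts scaled to an equal TMM-corrected library total) with DMSO and 64925 to 73247 CPM with NUP-17d. All 11 were called lower with NUP-17d (median log2 fold change -0.70) by the test described below. These and the marker calls that follow are on the TMM scale, where 18.9% of all tested genes were called lower and 16.4% higher. Marker calls with library totals alone were not counted. Markers of neutrophils summed to 3880 to 4043 CPM with DMSO and 3964 to 4242 CPM with NUP-17d, with 2 of 8 higher and 0 lower. Markers of macrophages (596 to 650 against 643 to 711 CPM, 1 of 6 higher and 2 lower), megakaryocytes (327 to 356 against 372 to 393 CPM, 3 of 5 higher) and mast cells and basophils (192 to 207 against 169 to 175 CPM, 1 of 4 higher and 2 lower) were present at lower sums. B cell markers summed to at most 14.3 CPM with 1 of 3 lower, and T cell markers to at most 2.26 CPM with 0 of 2 tested called and Cd3g too low to test. No marker was at 0 in every culture. Fewer cells of a type and less of its RNA per cell cannot be told apart in these bulk samples, and the part of cell makeup in the results below was not tested.

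Of the 9 enzyme genes, 5 fell with NUP-17d, 2 rose and 2 did not pass the test on the TMM scale. Nt5c3, Bpgm, Pklr, Pfkm and Hk1 were lower, Pkm and Aldoa were higher, and Gpi1 and Ak1 were not called. The test was edgeR's quasi-likelihood test on rounded expected counts, with Benjamini-Hochberg adjustment over all 12306 genes that passed the filter on low counts and a threshold of 0.05, and all 9 genes passed that filter. Of all tested genes 35.3% were called, 18.9% lower and 16.4% higher. The median log2 fold change of the 9 was -0.21. The groups did not overlap in 8 of the 9 genes, as in 46.0% of all tested genes. With library totals alone, 2 of the 9 (Nt5c3 and Bpgm) were called lower and 3 (Gpi1, Aldoa and Pkm) higher, where 74.1% of all tested genes were called, 5.34% lower and 68.7% higher. All 7 calls held when any single culture was left out. The 9 genes together held 0.359% to 0.370% of the reads of a DMSO culture and 0.338% to 0.342% of those of a NUP-17d culture. DESeq2 called 5 of the 9 lower and 2 higher, where it called 24.6% of all genes, 15.0% lower and 9.63% higher. limma on log2(FPKM + 1), a scale without composition correction, called 2 lower and 3 higher, where it called 80.6% of all genes, 5.68% lower and 74.9% higher.

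**Figure D1:**
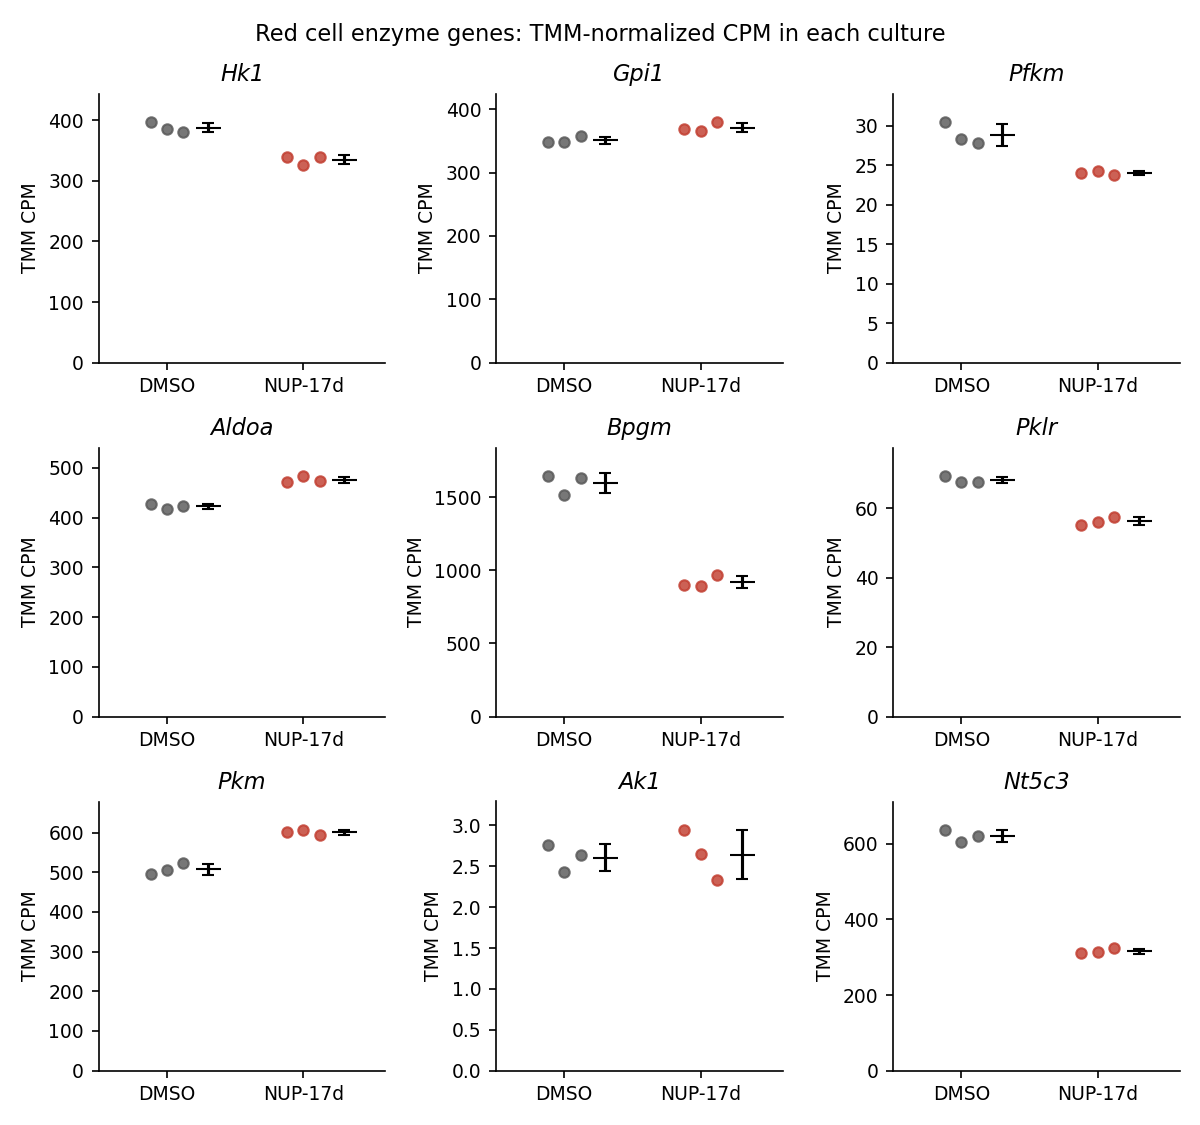
TMM-normalized CPM (vertical axes, each from 0) of the 9 enzyme genes in each of the 3 DMSO and 3 NUP-17d cultures (points), with the mean and SD of each group beside them. Nt5c3 and Bpgm lie far lower with NUP-17d, Hk1, Pfkm and Pklr slightly lower on this scale (Hk1 at 0.056, Pfkm at 0.0032 and Pklr at -0.0099 log2 without composition scaling), Aldoa and Pkm higher, and the Ak1 cultures overlap.

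The largest fall was in the nucleotide arm. Nt5c3 (Entrez 107569, chr6:56882400-56924008) stood at 636, 606 and 620 CPM in DMSO cultures 1, 2 and 3 and at 312, 314 and 324 CPM in NUP-17d cultures 1, 2 and 3. The groups lay far apart and each was tight, on 6894 to 11542 reads per culture. The log2 fold change was -0.97 with a standard error of 0.035 (edgeR adjusted p = 1.88e-17) and -0.70 with library totals alone. The mean level fell by 49.0%. It was the 92nd largest fall among the 12306 tested genes. The vomeronasal receptor gene Vmn1r4, which overlaps the span of Nt5c3, had a mean count of 0.5. Ak1 (Entrez 11636, chr2:32621758-32635058), the cytosolic adenylate kinase of red cells, was the least abundant of the 9, with 46 to 65 reads per culture. Its levels were 2.76, 2.43 and 2.63 CPM with DMSO and 2.94, 2.65 and 2.34 CPM with NUP-17d. The highest and the lowest culture were both from the NUP-17d group, and the log2 fold change was 0.020 with a standard error of 0.17 (edgeR adjusted p = 0.938), so that a change of the size seen in Hk1 could not be resolved at this depth.

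Bpgm, which makes the bisphosphoglycerate that sets hemoglobin's oxygen affinity, fell almost as far. Bpgm (Entrez 12183, chr6:34476356-34505136) stood at 1641, 1514 and 1630 CPM in the DMSO cultures and at 898, 891 and 969 CPM in the NUP-17d cultures. The lowest DMSO culture was well above the highest NUP-17d culture. The log2 fold change was -0.80 with a standard error of 0.040 (edgeR adjusted p = 1.17e-14) and -0.53 with library totals alone. The mean level fell by 42.4%. It was the 175th largest fall of all tested genes. All 6 cultures had whole counts for Bpgm, on 19852 to 30346 reads each, and no other annotated gene overlaps it.

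The upper steps of glycolysis moved in both directions and by less. Hk1 (Entrez 15275, chr10:62268855-62379920), the hexokinase that traps glucose in the cell, stood at 397, 386 and 381 CPM with DMSO and at 340, 326 and 339 CPM with NUP-17d. The groups did not overlap, and the log2 fold change was -0.21 ± 0.034 (SE, edgeR adjusted p = 1.77e-05). With library totals alone it was 0.056 (edgeR adjusted p = 0.121), below the median of 0.28 over all tested genes in that fit. Gpi1 (Entrez 14751, chr7:34201327-34230336), which turns glucose 6-phosphate into fructose 6-phosphate, stood at 349, 348 and 357 CPM with DMSO and at 368, 366 and 379 CPM with NUP-17d. Each NUP-17d culture was above each DMSO culture, but the log2 fold change of 0.079 (SE 0.034) did not pass the threshold (edgeR adjusted p = 0.0691), while with library totals alone it was 0.35 and passed (adjusted p = 2.17e-09). Its counts were not whole in any culture, so part of its reads were assigned by estimate.

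Pfkm (Entrez 18642, chr15:98092589-98132447), a subunit of the enzyme that commits sugar to glycolysis, stood at 30.5, 28.3 and 27.8 CPM with DMSO and at 24.1, 24.3 and 23.7 CPM with NUP-17d. The groups did not overlap, and the log2 fold change was -0.26 ± 0.055 (SE; edgeR adjusted p = 0.000435) but 0.0032 with library totals alone (adjusted p = 0.963). Senp1, with a mean count of 1311.2, overlaps its span, and 518 to 551 reads per culture were assigned to Pfkm. Aldoa (Entrez 11674, chr7:126795234-126800994), which splits fructose bisphosphate, rose from 428, 417 and 423 CPM with DMSO to 472, 483 and 474 CPM with NUP-17d. Every NUP-17d culture was higher than every DMSO culture, and the log2 fold change was 0.17 ± 0.033 (SE; edgeR adjusted p = 0.000161), or 0.44 with library totals alone.

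At the last step, the genes of pyruvate kinase moved apart. Pklr (Entrez 18770, chr3:89136122-89146815), the source of the red cell R form and the liver L form, stood at 69.2, 67.6 and 67.5 CPM with DMSO and at 55.2, 56.0 and 57.5 CPM with NUP-17d. The log2 fold change was -0.28 with a standard error of 0.041 (edgeR adjusted p = 4.53e-06) and -0.0099 with library totals alone (adjusted p = 0.849). Hcn3, which overlaps its span, had a mean count of 21.3, against 1220 to 1283 reads per culture for Pklr. Pkm (Entrez 18746, chr9:59656576-59679372), the source of the M1 and M2 forms, stood at 495, 505 and 522 CPM with DMSO and at 601, 606 and 594 CPM with NUP-17d. The groups were separate in both genes, with Pklr lower and Pkm higher in each NUP-17d culture on the TMM scale. The log2 fold change of Pkm was 0.24 ± 0.034 (SE; edgeR adjusted p = 2.37e-06) and 0.51 with library totals alone. The tables give 1 value per gene, so the R and L forms, or the M1 and M2 forms, could not be separated.

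**Figure D2:**
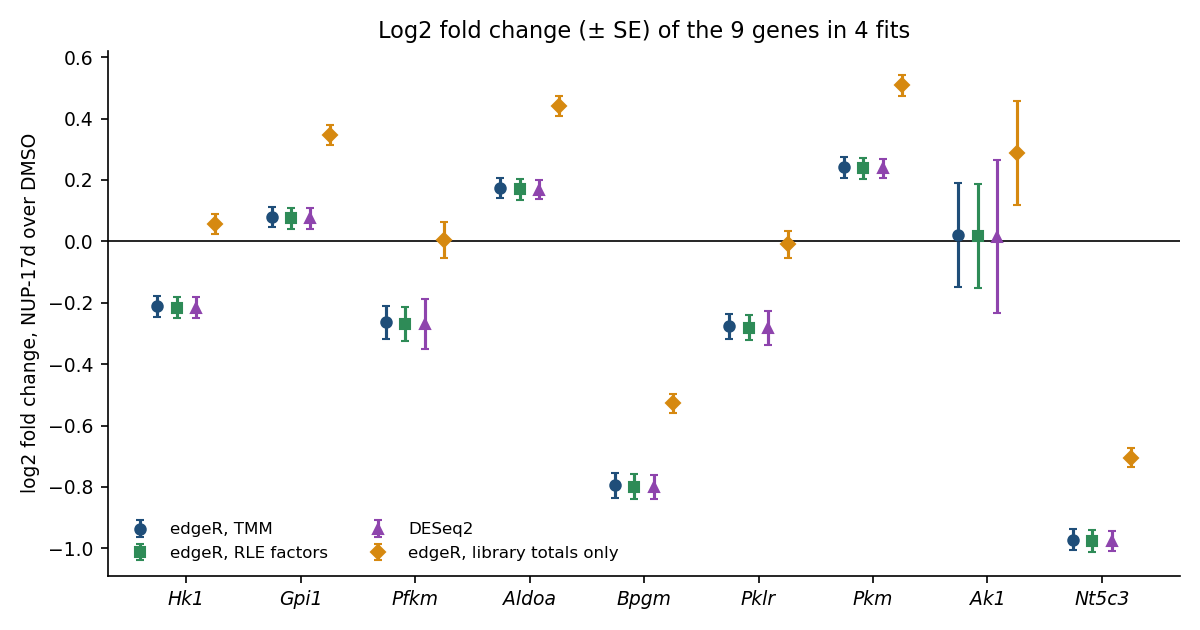
Log2 fold change (NUP-17d over DMSO, with SE) of the 9 enzyme genes in 4 fits, edgeR with TMM, with RLE factors and with library totals alone, and DESeq2. TMM, RLE and DESeq2 lie together, and library totals shift each gene up. Nt5c3 and Bpgm stay below 0 and Aldoa and Pkm above 0 in all 4. Pklr also stays below 0, at -0.0099 with library totals. Gpi1 and Ak1 stay above 0, though Ak1 was not called in any of the 4. Hk1 (0.056) and Pfkm (0.0032) cross 0 with library totals.

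Levels of different genes were compared per transcript length, as FPKM divided by the TMM factor. With DMSO, Bpgm was the highest at 765 ± 33.6, followed by Nt5c3 at 402 ± 9.58, Aldoa at 277 ± 3.69, Pkm at 206 ± 5.63, Gpi1 at 120 ± 1.80 and Hk1 at 92.1 ± 1.88 (mean ± SD, n = 3). Pklr at 24.8 ± 0.286, Pfkm at 10.04 ± 0.502 and Ak1 at 1.25 ± 0.0906 were the lowest. Bpgm ranked 64th and Nt5c3 147th by mean level among the 17060 listed genes, and Ak1 10213th. With NUP-17d, Bpgm was still the highest at 442 ± 20.6, and Aldoa at 313 ± 3.86 and Pkm at 245 ± 2.44 stood above Nt5c3 at 205 ± 4.0. Gpi1 at 127 ± 2.46, Hk1 at 79.6 ± 1.77, Pklr at 20.5 ± 0.496, Pfkm at 8.33 ± 0.103 and Ak1 at 1.27 ± 0.144 followed in the same order as with DMSO. Bpgm ranked 117th and Nt5c3 257th. No neighbours in either order had overlapping values. The mean transcript length given per gene varied between cultures for Hk1, Pfkm, Aldoa, Pklr, Ak1 and Nt5c3 of the 9 genes. In 3 of these, Hk1, Pfkm and Nt5c3, it was longer in each NUP-17d culture than in each DMSO culture. Of all 4611 genes whose length varied, 5.36% were longer in this way.

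**Figure D3:**
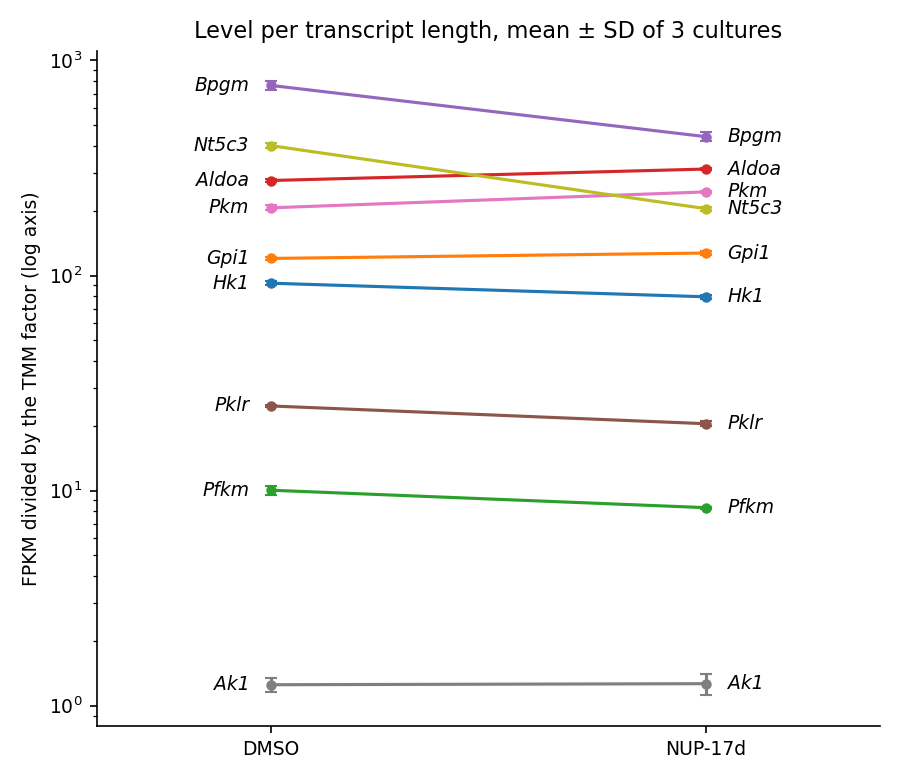
Level per transcript length (FPKM divided by the TMM factor, log axis) of the 9 enzyme genes with DMSO and with NUP-17d, as mean and SD of 3 cultures. Nt5c3 crosses below Aldoa and Pkm, from 402 to 205, and the other 8 genes keep their order.

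The balance between isozymes was then measured as the log2 ratio of FPKM within a culture, a value in which library scaling cancels. In the 6 pairs reported here the ratio was lower in every NUP-17d culture than in every DMSO culture. These ratios restate the levels of the same genes and are no separate support for their calls. The share of all gene pairs that separate in this way was not computed. Of single tested genes, 46.0% did not overlap between groups. The Pklr to Pkm ratio was -3.01, -3.06 and -3.12 with DMSO and -3.62, -3.60 and -3.53 with NUP-17d. The groups were separate by far more than their spread, and the share of Pklr in the sum of both went from 10.7% ± 0.365 to 7.72% ± 0.227 (SD, n = 3). The Bpgm to Pgam1 ratio, which sets the bisphosphoglycerate maker against the glycolytic phosphoglycerate mutase, was 2.92, 2.82 and 2.85 with DMSO and 1.89, 1.77 and 1.97 with NUP-17d. Bpgm stood 7.27-fold above Pgam1 with DMSO and 3.68-fold above it with NUP-17d, and Pgam1 itself was higher with NUP-17d (log2 fold change 0.19, edgeR adjusted p = 0.000248). The differences of the mean log2 ratio were -0.52 for Pklr to Pkm and -0.98 for Bpgm to Pgam1.

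The other glycolytic pairs lay in the same direction. The Hk1 to Hk2 ratio was 3.84, 3.65 and 3.75 with DMSO and 3.39, 3.35 and 3.52 with NUP-17d (difference -0.33), and Hk1 held 93.1% ± 0.422 and 91.5% ± 0.455 of the sum, so it remained the main hexokinase of this pair. The Pfkm share went from 45.8% ± 2.95 to 39.0% ± 0.258 against the liver type Pfkl (log2 ratio difference -0.41), with the DMSO spread set by culture 1 at 49.2%. Against the platelet type Pfkp it went from 50.1% ± 0.240 to 42.2% ± 0.357 (difference -0.46), and these pairs share Pfkm. Pfkl (log2 fold change 0.13, edgeR adjusted p = 0.0423) and Pfkp (0.19, adjusted p = 0.00228) were higher with NUP-17d, and the Pfkl call was lost with DESeq2 (adjusted p = 0.18). It was also lost without DMSO culture 1 (edgeR adjusted p = 0.301) and without NUP-17d culture 1, 2 or 3 (0.0951, 0.0780 and 0.0645). Hk2 was not called (0.11, adjusted p = 0.0943), but passed without DMSO culture 2 (adjusted p = 0.0359) or NUP-17d culture 3 (0.0390).

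The ratio of Aldoa to Aldoc, the brain type aldolase, was lower with NUP-17d by a log2 difference of -0.59, and Aldoa stood 168-fold above Aldoc with DMSO and 112-fold above it with NUP-17d. Both genes were higher with NUP-17d, Aldoc by 0.76 (edgeR adjusted p = 5.06e-05), from 4.26, 5.11 and 4.14 CPM to 6.6, 7.22 and 9.17 CPM. For each of these 6 pairs the 2-sided exact permutation test gave p = 0.1, the smallest that 3 cultures against 3 allow (0.117 adjusted over the 7 pairs computed, of which 6 are reported here), so no pair could pass 0.05. Pfkl and Pfkp had no whole counts, so part of their reads were assigned by estimate.

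**Figure D4:**
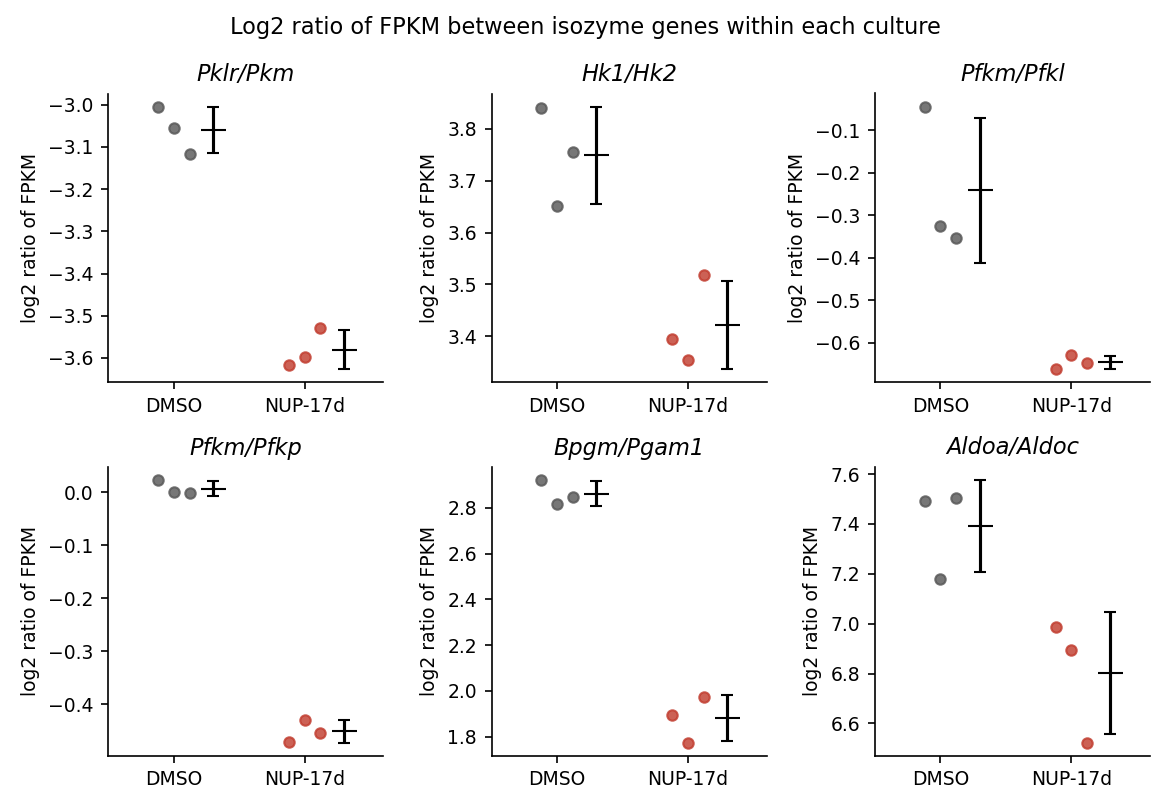
Log2 ratio of FPKM (vertical axes, not from 0) of 6 isozyme pairs in each of 3 DMSO and 3 NUP-17d cultures (points), with the mean and SD of each group. The NUP-17d cultures lie below the DMSO cultures in these 6 pairs, by 0.33 for Hk1 to Hk2 up to 0.98 for Bpgm to Pgam1.

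The rest of glycolysis did not move in a single direction. Of 35 further genes of glycolysis, bisphosphoglycerate and the pentose phosphate pathway, 32 were listed and tested, of which 9 were higher, 5 lower and 18 not called on the TMM scale, with a median log2 fold change of 0.018, against 16.4% higher and 18.9% lower of all tested genes. With library totals alone 27 were called higher and 1 lower, against 68.7% and 5.34% of all tested genes. Of the enzymes that follow aldolase, Pgam1 was called higher, as given above, and Tpi1 (0.0082), Gapdh (0.0059), Pgk1 (-0.061), the enolase Eno1 (0.092, edgeR adjusted p = 0.0583) and Ldha (-0.063), the lactate dehydrogenase subunit of anaerobic tissues, were not called. Slc2a1, a glucose transporter (0.043), was not called either. All of these but Pgam1 were named after their values were seen.

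Of the called genes of that list, the largest rises were in isozymes of low abundance. Eno2, the neuronal enolase, was at 0.430 to 0.718 CPM with DMSO and 0.825 to 1.39 CPM with NUP-17d (log2 fold change 0.91, edgeR adjusted p = 0.0222), and its call was lost with DESeq2 (adjusted p = 0.145). It was also lost without DMSO culture 2 or 3 (edgeR adjusted p = 0.0510 and 0.113) or NUP-17d culture 1 or 2 (0.0510 and 0.130). Aldoc came next, with the values above. Tigar, a phosphatase that removes an activator of phosphofructokinase, was higher by 0.39 (adjusted p = 0.00694, but 0.0547 with DESeq2 and 0.0598 without DMSO culture 1). Ldhb, the lactate dehydrogenase subunit of aerobic tissues, was higher by 0.32 (adjusted p = 0.000967), at 11.5 to 12 CPM with DMSO and 14.3 to 14.9 CPM with NUP-17d. Of the genes that fell, Slc16a1, the lactate carrier MCT1, had the largest fall, -0.40 (adjusted p = 1.18e-09), from 172 to 181 CPM to 131 to 137 CPM, and it was also lower with library totals alone (-0.13, adjusted p = 0.00316).

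Pfkfb2, an isoform of the enzyme that makes and breaks an activator of phosphofructokinase, was lower (-0.30, edgeR adjusted p = 7.32e-06), but its call was lost with library totals alone (-0.030, adjusted p = 0.58). Slc2a3, a glucose transporter, was lower on the TMM scale (-0.16, adjusted p = 0.0143) but not with library totals alone (0.11, adjusted p = 0.087), and its call was lost with DESeq2 (adjusted p = 0.0738) and without DMSO culture 2 or 3 (adjusted p = 0.0651 and 0.0979). Minpp1, a phosphatase that can act on 2,3-bisphosphoglycerate, was lower on the TMM scale (-0.13, adjusted p = 0.0113) and higher with library totals alone (0.13, adjusted p = 0.0073). Without NUP-17d culture 2 its call on the TMM scale was lost (edgeR adjusted p = 0.0552).

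Among the genes of purine and pyrimidine handling other than Nt5c3 and Ak1, more were called lower than higher on the TMM scale. Of 32 in the list, 31 were listed (Nt5c1a was not) and 29 tested, of which 2 were higher, 11 lower and 16 not called (median log2 fold change -0.048), against 18.9% lower and 16.4% higher of all tested genes. With library totals alone 19 were called higher and 4 lower, against 68.7% and 5.34% of all tested genes. The 4 largest falls kept their direction on both scales. Pnp2, a purine nucleoside phosphorylase, was at 162 to 173 CPM with DMSO and 86.8 to 99.3 CPM with NUP-17d (log2 fold change -0.85, edgeR adjusted p = 1.00e-14, and -0.59 with library totals alone). It is a near copy of Pnp, and neither had whole counts, so how reads were divided between them is uncertain.

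Cda, which deaminates cytidine, fell from 7.41 to 8.33 CPM with DMSO to 4.57 to 5.38 CPM with NUP-17d (log2 fold change -0.66, edgeR adjusted p = 3.67e-05, and -0.39 with library totals alone). Gda, which deaminates guanine, fell from 919 to 982 CPM to 641 to 678 CPM (-0.52, adjusted p = 5.58e-12, and -0.26 with library totals alone). Ampd3, the AMP deaminase form of red cells, fell from 83.4 to 89.7 CPM to 67.0 to 67.7 CPM (-0.36, adjusted p = 4.01e-08, and -0.096 with library totals alone, adjusted p = 0.0476). The groups were separate in all of these. Relatives of Nt5c3 that also remove phosphate from nucleotides were not called, with log2 fold changes of -0.021 for Nt5c3b, 0.033 for Nt5c and 0.0082 for Nt5c2, and these were named after their values were seen. The genes called higher were Ak5, an adenylate kinase (0.72, adjusted p = 0.012, 1.02 to 1.53 CPM with DMSO and 1.81 to 2.48 CPM with NUP-17d), and Aprt, which salvages adenine (0.12, adjusted p = 0.0403). Neither was called with DESeq2 (adjusted p = 0.0892 and 0.20). Ak5 lost its call without DMSO culture 3 (edgeR adjusted p = 0.0738) or NUP-17d culture 3 (0.0690). Aprt lost its call without DMSO culture 1 or 2 (edgeR adjusted p = 0.159 and 0.106) or NUP-17d culture 2 or 3 (0.0630 and 0.161).

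**Figure D5:**
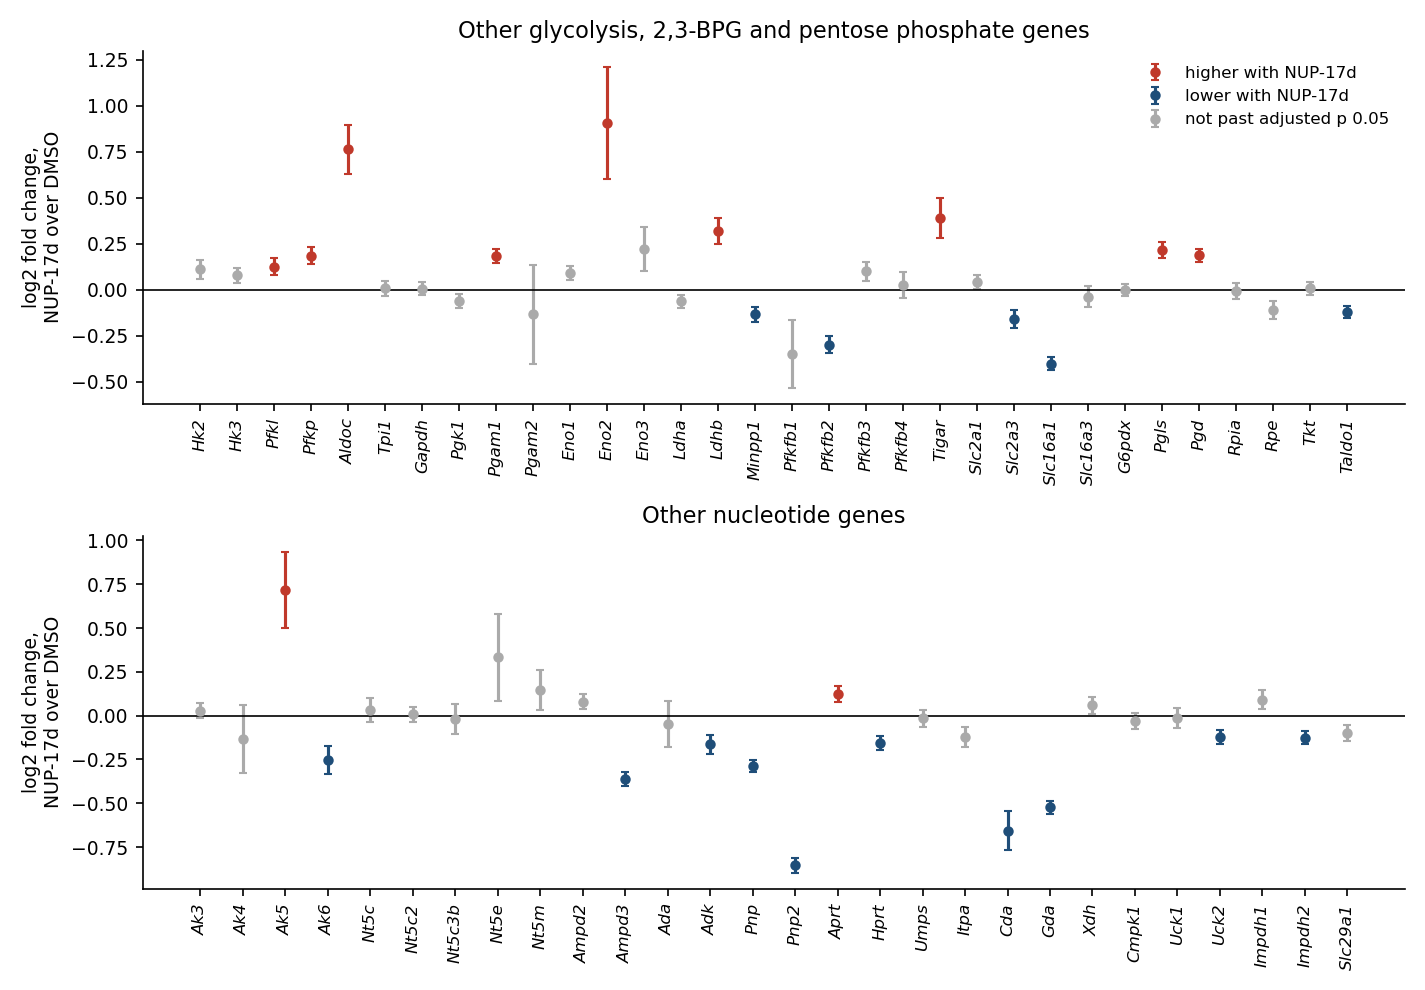
Log2 fold change (NUP-17d over DMSO, with SE, edgeR with TMM) of the 32 other tested genes of glycolysis, bisphosphoglycerate and pentose phosphate (top) and of 28 of the 29 other tested nucleotide genes (bottom), colored by the call at an adjusted p of 0.05. In the top panel 9 are higher and 5 lower and in the bottom panel 2 are higher and 10 lower. With library totals alone, 27 were called higher and 1 lower of the whole first list, and 19 higher and 4 lower of the whole second list.

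The genes with the pattern most like these enzymes were found by the Euclidean distance between log2 TMM CPM values centered on each gene over the 6 cultures, among 9755 genes that averaged at least 100 counts. Among the 3 nearest to Nt5c3 were Trim10 (distance 0.0546, from a mean of 908 to 469 CPM) and Fbxo30 (0.0578, 522 to 271 CPM). Nearest to Pkm were Zfp362 (0.0191, 36.2 to 42.9 CPM), Rab22a (0.0296, 23.8 to 28.1 CPM) and Arrdc1 (0.0345, 32.3 to 37.6 CPM). Nearest to the median profile of the 9 enzymes were Ccna2 (0.0244), Hmmr (0.0263) and Sidt2 (0.0308), with log2 fold changes of -0.205, -0.203 and -0.195.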

How the data were processed

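RNA of 3 DMSO and 3 NUP-17d cultures was compared, grouped by the treatment in the labels. Library details differ between the sources (a stranded Illumina kit in the study's methods, oligo dT enrichment and DNBseq sequencing in the labels), so strand use in counting is not known. The aligner and counting program are not given in the sources used here. The build is mm10 per the submitters' processing notes.

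The authors deposited, per culture, an expected count per gene, not normalized, of which 27.8% to 28.5% of values were not whole, and an FPKM value scaled by length and library total. A gene missing from a culture's table was taken as 0. The dose comes from the legend of the study's RNA-Seq figure.

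Counts were rounded and tested in edgeR 4.0.16 (R 4.3.3) with filterByExpr, TMM, glmQLFit and glmQLFTest. CPM uses the TMM-scaled library. Standard errors are the log2 fold change divided by the root of the F statistic. Isozyme ratios used FPKM with a 2-sided exact permutation test. Alternatives were DESeq2 1.42.0, RLE factors, library totals alone, hemoglobin genes removed, no filter, limma 3.58.1 on log2 FPKM with 1 or 0.1 added where mean FPKM reached 1, the culture number as a block, and each culture left out. The fits were tested on simulated counts with 200 changed genes. That simulation set no shift in composition between groups, so it could not test the scaling.

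The 9 genes and both lists were chosen with earlier results of these data known. Besides the 9 and their isozyme partners, the rule named up to 4 called genes per list and direction, the largest rises and falls, and the 3 nearest patterns. No list was tested as a set. Some genes chosen by these rules are not reported here. Cultures of a group differed by more than sampling noise (chi-square per degree of freedom 1.80 to 4.41).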

Additional observations from a re-analysis of the deposited data

Results flagged for a closer look

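The tables also give a mean transcript length per gene and culture, a quantity outside the comparisons of levels, which moves where reads are divided differently among a gene's transcripts. It varied between cultures in 6 of the 9 genes and did not overlap between groups in 3 of them, each longer with NUP-17d. Hk1 measured 4141.9 ± 4.12 bases with DMSO and 4148.4 ± 0.824 with NUP-17d, a difference of 6.50 bases. Pfkm measured 2837.6 ± 4.76 and 2854.0 ± 2.29, a difference of 16.4 bases. Nt5c3 measured 1542.6 ± 0.538 and 1547.4 ± 2.09, a difference of 4.84 bases (SD, n = 3 each). The 2-sided exact permutation test gave p = 0.1 for each, the smallest that 3 cultures against 3 allow. Of 4611 genes whose length varied, 11.4% did not overlap between groups and 5.36% were longer in each NUP-17d culture than in each DMSO culture.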

How the results depend on the processing

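Nt5c3 and Bpgm stayed lower and Pkm and Aldoa higher, each past the threshold, in every alternative run. Composition scaling mattered most. Calls over all genes were 4346 (2019 higher, 2327 lower), against 9115 (8458 and 657) with library totals, and 8494 and 8480 with limma at 1 and 0.1 added. Calls in the glycolysis list were 14, against 28, 27 and 27 in those 3 fits, and in the nucleotide list 13, against 23, 20 and 20, and 8 with DESeq2. Hk1 turned to 0.056 with library totals and to 0.057 and 0.057 with limma, and Pfkm to 0.0032 with library totals. Hk1, Pklr and Pfkm lost their calls in these 3 fits. Gpi1 gained a call in each (edgeR adjusted p = 2.17e-09 with library totals, limma adjusted p = 1.10e-06 and 1.35e-06). Leaving out each culture gave 3713 to 4008 calls over all genes, 12 to 14 in the glycolysis list, 9 to 12 in the nucleotide list and 7 of the 9 enzymes each time. Deviations from the group mean correlated at 0.0657, 0.00637 and 0.00462 between same-numbered cultures. Between differently numbered cultures the correlations ran from -0.0754 to 0.0711. The sources do not say whether same-numbered cultures share an origin, and these values cannot settle whether the numbers pair the samples. With the replicate block 4543 genes and 8 of the 9 enzymes were called, the added enzyme being Gpi1 (adjusted p = 0.0441). Isozyme ratio differences kept their sign under each alternative. Protein sequences were not analysed here. Genes with few reads, such as Ak1 with 46 to 65, are measured least precisely.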
